A study of Mus musculus with 6 samples.

Results

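The genes described here are 36 genes of the apoptosis machinery, chosen by symbol, by a rule that uses no measured value, although with earlier results of these data known, out of 21367 genes in the deposited table. They comprised 6 anti-apoptotic genes (*Bcl2*, *Bcl2l1*, *Bcl2l2*, *Mcl1*, *Xiap*, *Birc2*), 10 pro-apoptotic effector and BH3-only genes, 5 genes of mitochondrial release factors, 6 genes of caspases and the apoptosome, 6 genes of the death receptor pathway and 3 genes of the execution nucleases and their substrate. All 36 genes passed the filter on low counts and were among the 13036 genes tested. The question was whether mRNA of these genes differed between *Ptpn6*+/mev and wild-type kidneys after ischemia-reperfusion injury (IRI).

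Kidney mRNA was sequenced from 3 *Ptpn6*+/mev mice and 3 wild-type littermates, 1 library per mouse. *Ptpn6* encodes the tyrosine phosphatase SHP-1, and the mev (viable motheaten) allele is a splice site mutation, which heterozygous mice carry beside a normal copy in every cell. Mice of both groups were on a C57BL/6 background, were 7 weeks old and lost the right kidney. The left pedicle was then clamped for 34 min and the left kidney was taken at 24 h of reperfusion, so that every library in this comparison comes from an injured kidney.

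Apoptosis in the injured tubule runs along 2 routes that meet at the caspases. In the mitochondrial route, BH3-only proteins sense damage and relieve BAX and BAK from BCL2 and its relatives, the outer mitochondrial membrane opens, and cytochrome c joins APAF1 to activate caspase 9. In the death receptor route, ligands such as TRAIL bind receptors that recruit FADD and caspase 8, and c-FLIP (*Cflar*) holds caspase 8 back. Much of this control is exerted on proteins, by binding, cleavage and phosphorylation, which mRNA levels do not measure.

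Total counts per library ranged from 10271590 to 12361745, and genes with a count from 15168 to 15283. The tubule gene *Umod* was at 1628 to 2556 FPKM in every library, as kidney tissue should show. Wild-type replicate 2 stood apart from the other libraries. Its 10 most abundant genes took 12.6% of counts, against 9.21% to 10.9% elsewhere. The summed FPKM (fragments scaled to transcript length and to library size) of 8 proximal tubule markers was 10694 in this library and 2144 to 3385 in the other 5, with 10201 of it from the single gene *Kap*. This library was also the lowest of 6 in summed markers of endothelium (53.2 FPKM), macrophages (108 FPKM) and fibroblasts (52.6 FPKM). Log2 fold changes of the 36 genes that move by over 1.5 times or turn in sign without it are therefore also given without it. *Ptpn6* itself was at 11.9, 14.7 and 13.6 FPKM in the *Ptpn6*+/mev mice and at 17.5, 10.9 and 15.4 FPKM in the wild-type mice, and a splice mutation need not lower this value.

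No apoptosis gene passed a false discovery rate (FDR) of 0.05 in edgeR's quasi-likelihood test, a rule that called 0.138% of all tested genes. The lowest FDR among the 36 genes was 0.28, for *Bmf*, and the highest was 0.99, for *Casp6*. At an unadjusted p under 0.05, 4 genes were higher in *Ptpn6*+/mev kidneys (*Bmf*, *Bax*, *Bik* and *Bak1*), all of them pro-apoptotic, and 1 was lower (*Cflar*). That is 11.1% of the list higher, where 5.53% of all tested genes were called higher, and 2.78% lower, where 6.71% were called lower. DESeq2 and edgeR's exact test called 2.97% and 2.99% of all genes at an FDR of 0.05, and likewise none of the 36, with 2 higher and 0 lower at an unadjusted p under 0.05 in each. At that p, DESeq2 called 4.93% of all tested genes higher and 6.38% lower, and the exact test 4.95% and 6.33%. No apoptosis gene differed by more than 2-fold. The log2 fold changes ran from -0.34 (*Casp8*) to 0.62 (*Bmf*), with a median of 0.12 over the 36 genes against 0.00 over all tested genes, and were above 0 in 23 genes and below 0 in 13. The number higher at an unadjusted p under 0.05 was 4 without wild-type replicate 2, 3 without wild-type replicate 3, 2 without *Ptpn6*+/mev replicate 1 or 2, 1 without wild-type replicate 1 and 0 without *Ptpn6*+/mev replicate 3, and *Cflar* lost this p without *Ptpn6*+/mev replicate 1 or 2 or wild-type replicate 1 or 2. Over all tested genes the share higher at this p was between 3.45% and 8.36% with 1 library left out.

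**Figure D1:**
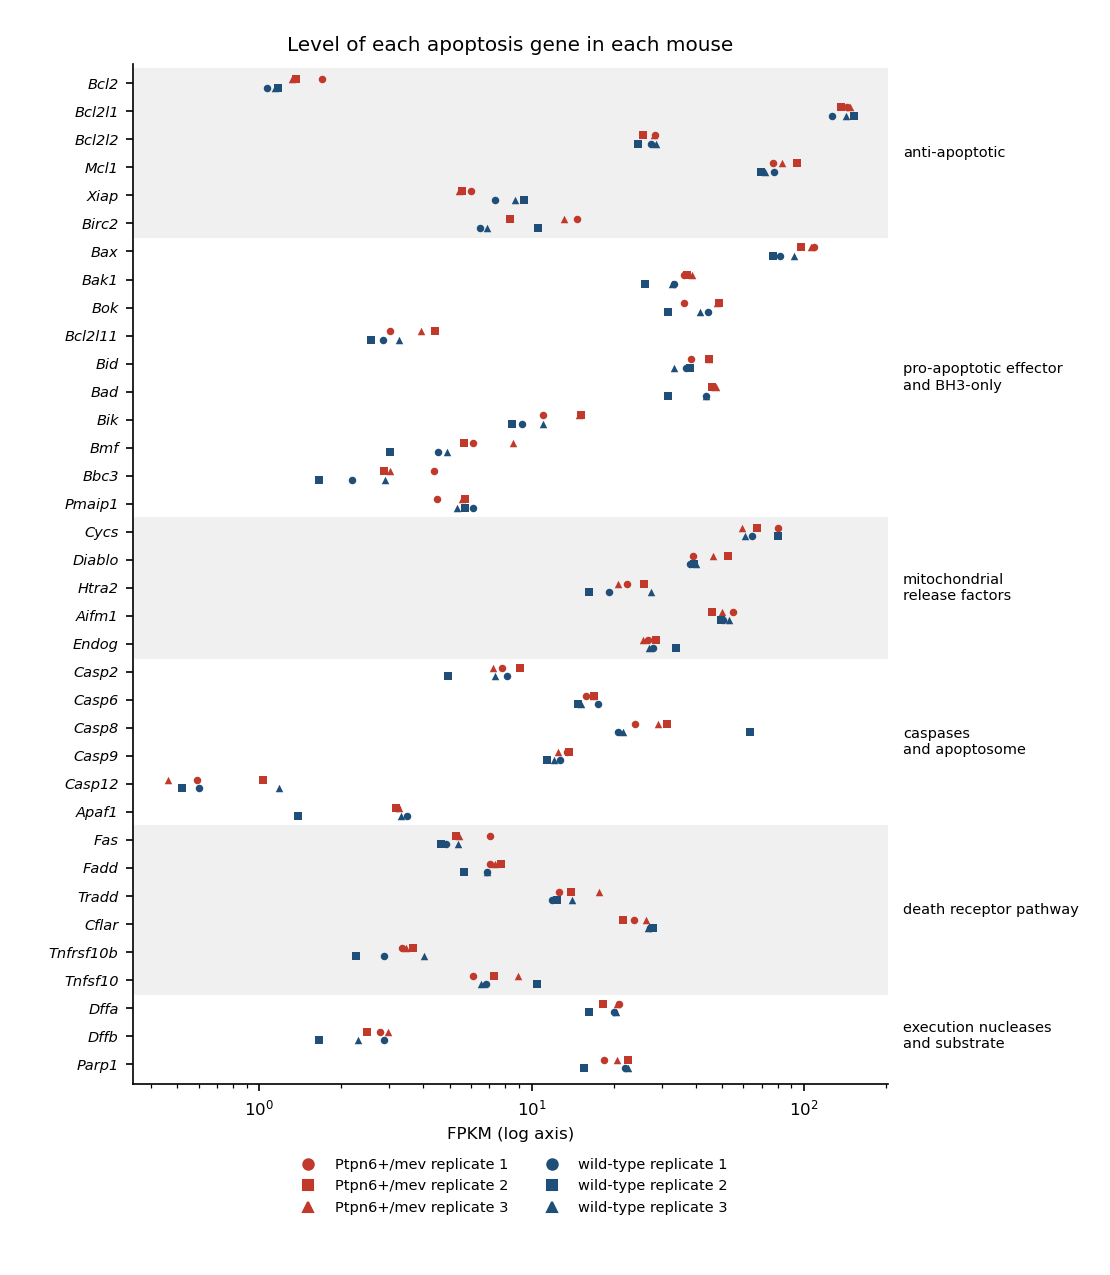
FPKM of each of the 36 apoptosis genes (log axis) in each of the 3 *Ptpn6*+/mev mice (red) and 3 wild-type mice (blue), with shaded bands separating the classes and a marker shape for each replicate. The red and blue points of most genes overlap, *Bcl2l1* is at the right end and *Casp12* at the left, and the wild-type square of *Casp8*, at 63.5 FPKM, lies far to the right of its group.

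Levels spanned a wide range. On the FPKM scale, which is per length of transcript, 5 genes averaged above 50 over the 6 mice (*Bcl2l1*, *Bax*, *Mcl1*, *Cycs* and *Aifm1*) and 7 averaged under 5. The gene with the highest mean was *Bcl2l1*, the gene of BCL-XL, at 142 FPKM, and the lowest was *Casp12*, at 0.73 FPKM with between 6 and 17 counts in a library. *Bcl2* itself was near the bottom of its class, at 1.32 to 1.70 FPKM in *Ptpn6*+/mev mice and 1.07 to 1.17 FPKM in wild-type mice.

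Among the pro-apoptotic genes, *Bax*, which forms the pore in the outer mitochondrial membrane, was at 109, 97.9 and 106 FPKM in the *Ptpn6*+/mev mice and at 81.6, 76.9 and 91.6 FPKM in the wild-type mice. Every *Ptpn6*+/mev mouse was above every wild-type mouse. The means were 104 ± 5.62 and 83.4 ± 7.50 FPKM (SD, n = 3 each), and in edgeR the count-based log2 fold change was 0.24 (SE 0.09, FDR 0.33). Without wild-type replicate 2 the log2 fold change was 0.22 (SE 0.10, FDR 0.28), so that the value of *Bax* rested little on this library. *Bak1*, the second pore-forming effector, was at 36.4, 37.2 and 38.8 FPKM against 33.4, 26.1 and 32.8 FPKM. These groups did not overlap either, and wild-type replicate 2 was the lowest library. Its log2 fold change was 0.23 (SE 0.09, FDR 0.38 in edgeR), and 0.15 (SE 0.08) without that library.

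*Bmf*, a BH3-only gene whose protein is linked to the cytoskeleton, had the largest difference of the 36 genes. It was at 6.11, 5.64 and 8.52 FPKM in the *Ptpn6*+/mev mice and at 4.54, 3.01 and 4.90 FPKM in the wild-type mice, from 154 to 422 counts per library. The groups did not overlap, *Ptpn6*+/mev replicate 3 was the highest library and wild-type replicate 2 the lowest. The log2 fold change was 0.62 (SE 0.21, FDR 0.28 in edgeR), or 1.53-fold, and 0.45 (SE 0.18, FDR 0.23) without wild-type replicate 2. *Bik*, a BH3-only gene whose protein acts at the endoplasmic reticulum, was at 11.0, 15.2 and 14.9 FPKM against 9.21, 8.47 and 11.03 FPKM. Here *Ptpn6*+/mev replicate 1 fell just within the wild-type range, and the log2 fold change was 0.45 (SE 0.19, FDR 0.37 in edgeR).

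The promoters of *Bax* and *Bmf* are shown because these genes had the lowest p-values of the effector and BH3-only genes. Promoters of 31 of the 36 genes were matched by symbol in RefSeq (GRCm38.p6), each covering 250 bases before a gene's start and 50 after it. The remaining 5 were *Bik*, *Htra2*, *Pmaip1*, *Tnfrsf10b* and *Tradd*. The p53 half-site consensus, which reads the same on both strands, was found in 3 of the 42 promoters of these genes (7.14%), 1 each of *Bax*, *Bmf* and *Birc2*, and in 8.36% of all 32851 promoters of the same length. Capitals mark the match, 201 bases before the start of *Bax* (chr7:45466849-45467148, minus strand) and 213 bases before 1 of 3 starts of *Bmf* (chr2:118544538-118544837, minus strand). A match is a description of the letters only. The sequences run 5′ to 3′ along the strand of the gene.
Bax: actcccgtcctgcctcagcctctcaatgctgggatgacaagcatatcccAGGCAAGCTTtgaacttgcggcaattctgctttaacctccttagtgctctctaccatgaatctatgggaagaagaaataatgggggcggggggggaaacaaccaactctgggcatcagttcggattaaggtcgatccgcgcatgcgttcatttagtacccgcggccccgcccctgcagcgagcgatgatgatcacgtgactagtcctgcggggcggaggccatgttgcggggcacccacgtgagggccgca
Bmf: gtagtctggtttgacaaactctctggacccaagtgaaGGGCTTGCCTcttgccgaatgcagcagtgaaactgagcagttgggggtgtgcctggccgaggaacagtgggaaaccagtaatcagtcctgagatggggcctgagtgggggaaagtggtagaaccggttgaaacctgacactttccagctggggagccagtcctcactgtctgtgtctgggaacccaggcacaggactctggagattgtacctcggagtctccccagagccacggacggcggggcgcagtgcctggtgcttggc

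None of the other pro-apoptotic genes had an unadjusted p under 0.05. *Bid*, which links caspase 8 to the mitochondrion, was at 38.6, 44.8 and 44.8 FPKM against 36.8, 38.0 and 33.3 FPKM, with a log2 fold change of 0.17 (SE 0.11, FDR 0.60 in edgeR) that was 0.10 without wild-type replicate 3. *Bad*, which binds BCL-XL, was at 45.9, 46.0 and 47.5 FPKM against 43.7, 31.7 and 43.7 FPKM. Both genes had FPKM ranges that did not overlap, and in *Bad* wild-type replicate 2 lay well below the other wild-type libraries, so that its log2 fold change of 0.19 (SE 0.11) was 0.09 (SE 0.09) without it. *Bbc3*, the gene of PUMA and a p53 target, was at 4.39, 2.86 and 3.01 FPKM against 2.19, 1.65 and 2.89 FPKM. Its log2 fold change of 0.44 had a wide error (SE 0.25, FDR 0.55 in edgeR), was 0.28 (SE 0.24) without wild-type replicate 2, and rested on 33 to 69 counts per library. *Bok* and *Bcl2l11* (BIM) had log2 fold changes of 0.11 (SE 0.16) and 0.14 (SE 0.16), which were -0.02 (SE 0.13) and 0.04 (SE 0.15) without that library, and *Pmaip1* (NOXA) was the single gene of the class below 0, at -0.19 (SE 0.15), and at -0.10 without *Ptpn6*+/mev replicate 1. Over the class, 9 of 10 log2 fold changes were above 0, with a median of 0.21, and 0.19 without wild-type replicate 2. In 7 of these 10 genes wild-type replicate 2 was the lowest of 6 libraries, and it was the lowest in 15 of the 36 genes (41.7%), against 30.2% of all tested genes.

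**Figure D2:**
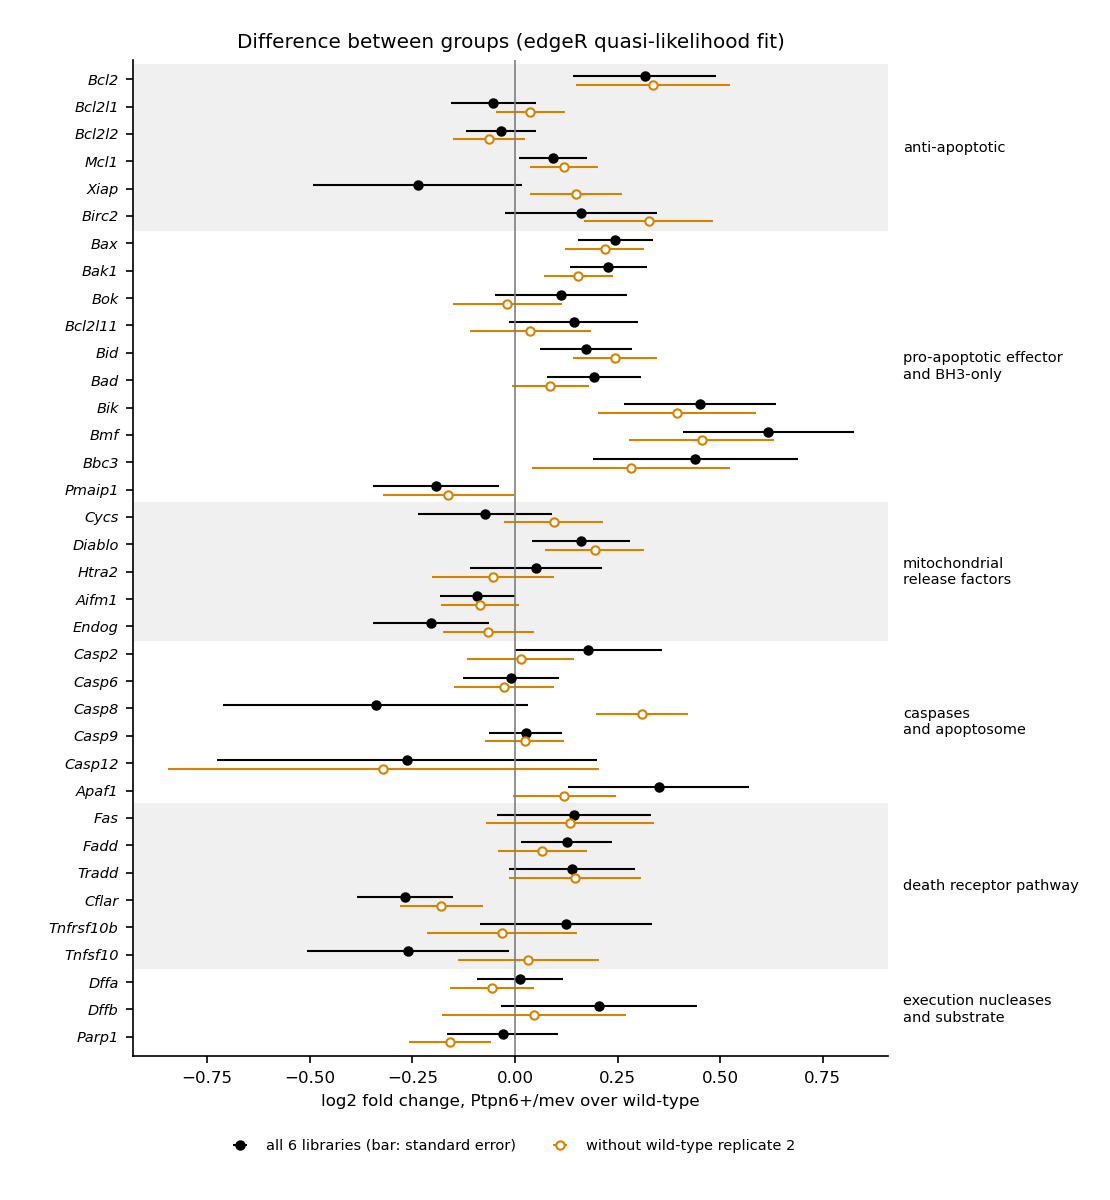
Log2 fold change, *Ptpn6*+/mev over wild-type, of each of the 36 apoptosis genes in the edgeR fit with all 6 libraries (black) and in the fit without wild-type replicate 2 (orange, open), where bars are standard errors and shaded bands separate the classes. The pro-apoptotic points lie mostly to the right of 0 in both fits, while the points of *Casp8* move from -0.34 to 0.31 and those of *Xiap* from -0.24 to 0.15.

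Comparison of FPKM ranges gave a longer list than the test. *Ptpn6*+/mev and wild-type ranges did not overlap in 9 genes, 7 higher in *Ptpn6*+/mev mice (*Bcl2*, *Bax*, *Bak1*, *Bid*, *Bad*, *Bmf* and *Fadd*) and 2 lower (*Xiap* and *Cflar*). The 7 higher genes were 19.4% of the list, against 14.0% of all tested genes, and the 2 lower genes were 5.56%, against 6.38% of all tested genes. Both shares are near those of all genes. On normalized CPM (counts scaled to library size with edgeR's TMM factors), 7 genes were higher without overlap, 6 of them the same as on the FPKM scale, with *Apaf1* in place of *Bid*, and none was lower. Over all tested genes the CPM ranges were apart in 9.64% higher and 9.80% lower, without the lean towards higher values that the FPKM scale has in this table.

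Of the anti-apoptotic genes none had an unadjusted p under 0.05. Their median log2 fold change was 0.03, with 3 genes above 0 and 3 below. This median was 0.13 without wild-type replicate 2 and -0.02 without *Ptpn6*+/mev replicate 3. *Bcl2l1*, the most abundant, was at 144, 136 and 148 FPKM in *Ptpn6*+/mev mice and at 126, 152 and 143 FPKM in wild-type mice. These ranges overlapped, and the log2 fold change was -0.05 (SE 0.10, FDR 0.90 in edgeR), and 0.04 (SE 0.08) without wild-type replicate 2. *Mcl1*, a short-lived relative of BCL2, was at 77.2, 94.05 and 83.1 FPKM against 77.4, 69.4 and 71.8 FPKM. *Ptpn6*+/mev replicate 1 lay within the wild-type range here, and the log2 fold change was 0.09 (SE 0.08) on counts and 0.21 on log2(FPKM + 1) in limma. *Bcl2*, the founder of the family, did not overlap between groups on either scale, at 8.86 to 11.50 normalized CPM in *Ptpn6*+/mev mice and 7.56 to 8.34 in wild-type mice, from 81 to 121 counts per library. Its log2 fold change of 0.32 (SE 0.17, FDR 0.54 in edgeR) was 0.34 (SE 0.19) without wild-type replicate 2 and 0.20 without *Ptpn6*+/mev replicate 1. *Bcl2l2* (BCL-w) had a log2 fold change of -0.03 (SE 0.08), and -0.06 (SE 0.09) without wild-type replicate 2.

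*Xiap*, which inhibits caspases, gave different pictures on the FPKM and count scales. It was at 6.0, 5.57 and 5.40 FPKM in *Ptpn6*+/mev mice and at 7.35, 9.35 and 8.68 FPKM in wild-type mice, where every wild-type mouse was higher. In normalized CPM it was at 34.0, 33.0 and 30.5 against 27.7, 56.8 and 30.6. On this scale wild-type replicate 1 was the lowest library and wild-type replicate 2, at 1.67 times the highest of the others, was the only wild-type library above all *Ptpn6*+/mev libraries. The log2 fold change was -0.24 (SE 0.26, FDR 0.78 in edgeR), and without wild-type replicate 2 it was 0.15 (SE 0.11, FDR 0.54). On log2(FPKM + 1) in limma it was -0.50.

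The 2 scales can be compared through the transcript length that a count and an FPKM value together imply. For *Xiap* this length was 5.81, 6.05 and 5.80 kb in the *Ptpn6*+/mev libraries and 3.75, 5.64 and 3.55 kb in the wild-type libraries. The low FPKM values of the *Ptpn6*+/mev mice thus went with long implied transcripts, and wild-type replicates 1 and 3 had short ones. *Birc2*, the gene of the ubiquitin ligase cIAP1, was the other such gene, with implied lengths of 1.85, 2.85 and 2.57 kb against 3.23, 2.65 and 3.32 kb. It was at 14.7, 8.31 and 13.2 FPKM against 6.49, 10.6 and 6.87 FPKM, while the normalized CPM values of 26.5, 23.2 and 32.9 against 21.1, 30.2 and 22.7 were closer together. The log2 fold change of *Birc2* was 0.16 (SE 0.18) on counts, 0.33 (SE 0.16) without wild-type replicate 2, 0.01 without *Ptpn6*+/mev replicate 3, 0.06 without wild-type replicate 1 and 0.53 on log2(FPKM + 1). Of the 24 apoptosis genes with at least 200 counts in every library, these 2 had a highest implied length over 1.3 times the lowest, as did 5.90% of 7266 such genes in the table. For *Bax* the implied length was 0.89 to 0.91 kb in every library, so its 2 scales give the same order of groups.

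**Figure D3:**
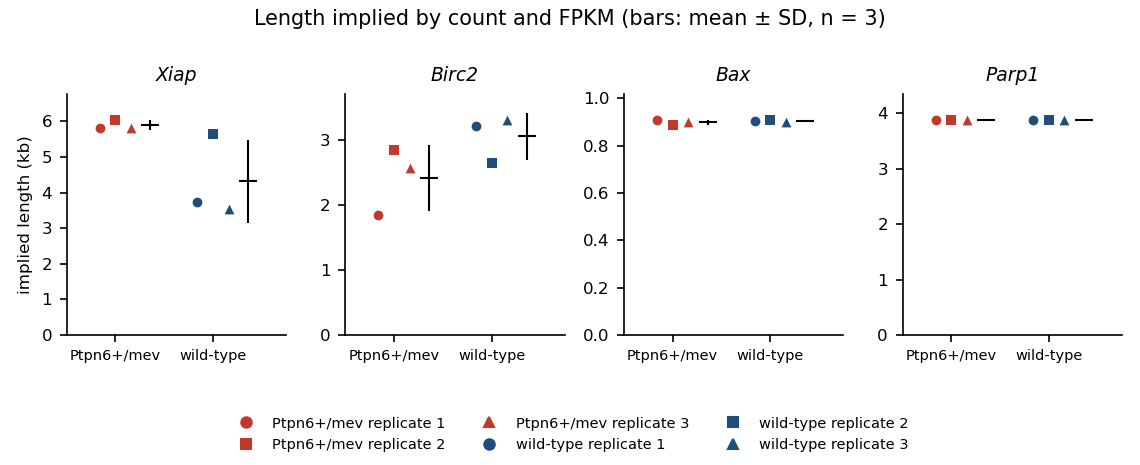
Transcript length in kb implied by the deposited count and FPKM value of a library, for *Xiap*, *Birc2*, *Bax* and *Parp1*, with 1 point per mouse and bars for the mean and SD of each group (n = 3). *Bax* and *Parp1* are level across the 6 mice, and wild-type replicates 1 and 3 stand below the rest in *Xiap* and above the rest in *Birc2*.

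Caspase 8 is the initiator that death receptors activate. *Casp8* was at 24.0, 31.5 and 29.0 FPKM in the *Ptpn6*+/mev mice and at 20.7, 63.5 and 21.7 FPKM in the wild-type mice. Wild-type replicate 2 was above every other library, at 2.03 times the highest of them in normalized CPM, and the remaining wild-type mice were below all *Ptpn6*+/mev mice. A gap of this size, more than 1.5-fold above the highest other library, was found in 2 of the 36 genes (*Casp8* and *Xiap*) and in 3.34% of all tested genes. The log2 fold change of *Casp8* was -0.34 (SE 0.37, FDR 0.79 in edgeR) with all libraries and 0.31 (SE 0.11, FDR 0.20) without wild-type replicate 2, so that its sign depends on this 1 mouse. *Cflar*, which lies beside it on chromosome 1 (chr1:58711508-58758884 in GRCm38, with *Casp8* at chr1:58795374-58847503, both on the plus strand), was also highest in that library, at 157 normalized CPM against 104 to 134 in the other 5. Whether the cell makeup of that kidney, described above by its markers, has a part in these values was not tested.

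The apoptosome gene *Apaf1* showed the opposite position of the same library. It was at 3.21, 3.18 and 3.25 FPKM in the *Ptpn6*+/mev mice and at 3.49, 1.39 and 3.32 FPKM in the wild-type mice. Wild-type replicate 2 had 99 counts against 185 to 214 elsewhere, and *Apaf1* was the 1 apoptosis gene more than 1.5-fold below the lowest other library in normalized CPM, as were 6.04% of all tested genes. The log2 fold change was 0.35 (SE 0.22, FDR 0.59 in edgeR), and 0.12 (SE 0.13) without that library. None of the remaining caspases had an unadjusted p under 0.05. *Casp9*, the initiator on the apoptosome, was at 13.5, 13.75 and 12.5 FPKM against 12.7, 11.4 and 12.1 FPKM, with a log2 fold change of 0.03 (SE 0.09). *Casp6*, an executioner, had a log2 fold change of -0.01 (SE 0.12), and -0.03 (SE 0.12) without wild-type replicate 2. *Casp2* had 0.18 (SE 0.18), and 0.01 (SE 0.13) without that library, and *Casp12*, at 17 counts or fewer in each library, had -0.26 (SE 0.46), which was -0.83 without *Ptpn6*+/mev replicate 2 and 0.03 without *Ptpn6*+/mev replicate 3. The median of the class was 0.01, and 0.02 without wild-type replicate 2. It was -0.03 without wild-type replicate 3 and 0.05 without wild-type replicate 1.

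**Figure D4:**
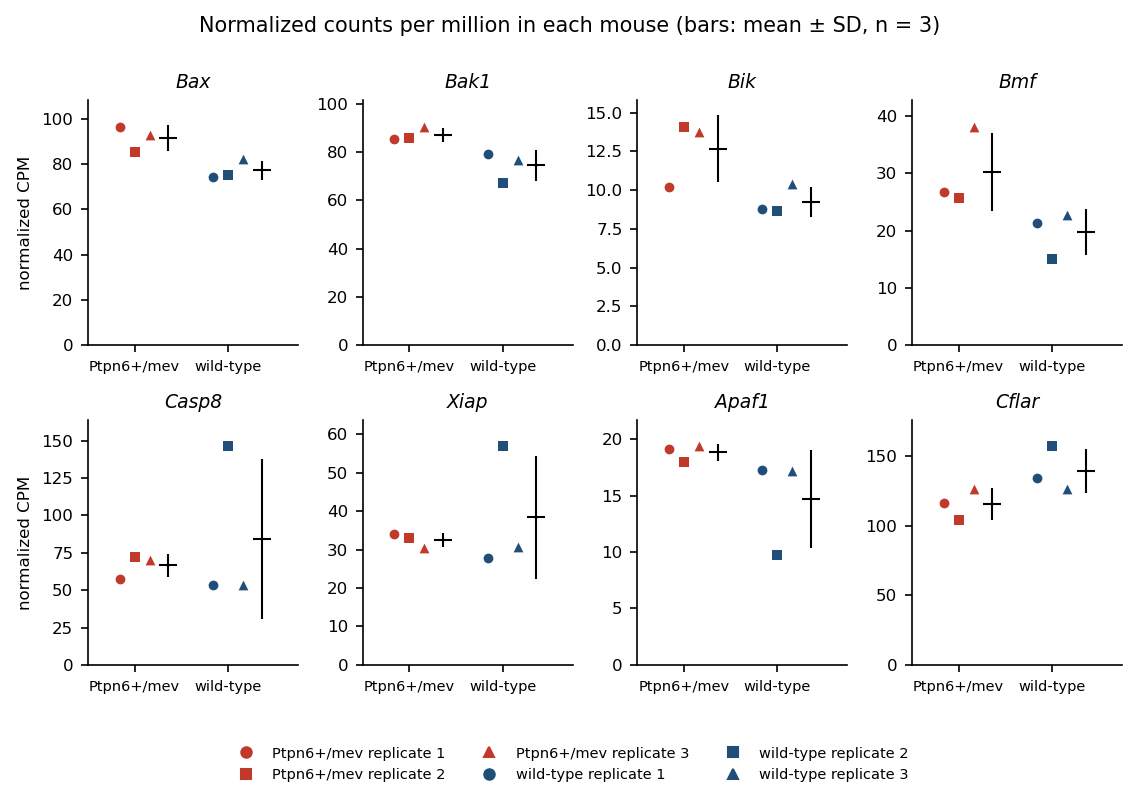
Normalized CPM of 8 apoptosis genes in each of the 3 *Ptpn6*+/mev mice (red) and 3 wild-type mice (blue), with a marker shape for each replicate and bars for the mean and SD of each group (n = 3). The groups are apart in *Bax*, *Bak1*, *Bmf* and *Apaf1*, and the wild-type square is far above all other points in *Casp8* (146) and *Xiap* (56.8) and far below them in *Apaf1* (9.72).

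In the death receptor pathway, *Cflar*, the inhibitor of caspase 8, was the single gene of the 36 that was lower at an unadjusted p under 0.05. It was at 23.71, 21.71 and 26.25 FPKM in the *Ptpn6*+/mev mice and at 27.15, 27.95 and 26.68 FPKM in the wild-type mice. The FPKM ranges did not overlap, but in normalized CPM *Ptpn6*+/mev replicate 3, at 126.5, was just above wild-type replicate 3, at 126.0. The log2 fold change was -0.27 (SE 0.12, FDR 0.41 in edgeR) and -0.18 (SE 0.10) without wild-type replicate 2.

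The receptor *Fas* was at 7.05, 5.27 and 5.41 FPKM against 4.85, 4.65 and 5.35 FPKM, from 73 to 99 counts. *Ptpn6*+/mev replicate 2 lay within the wild-type range, and the log2 fold change of 0.14 (SE 0.19) was 0.0042 without *Ptpn6*+/mev replicate 1. The adaptor *Fadd* was at 7.06, 7.71 and 7.33 FPKM against 6.84, 5.65 and 6.84 FPKM. Its groups did not overlap, but its log2 fold change was 0.13 (SE 0.11, FDR 0.72 in edgeR) and 0.07 (SE 0.11) without wild-type replicate 2. *Tradd*, the adaptor of TNF receptor 1, had a log2 fold change of 0.14 (SE 0.15), which was -0.0074 without *Ptpn6*+/mev replicate 3. The TRAIL receptor *Tnfrsf10b* was at 3.33, 3.66 and 3.47 FPKM against 2.88, 2.26 and 4.03 FPKM, and its ligand *Tnfsf10* at 6.09, 7.26 and 8.92 FPKM against 6.81, 10.47 and 6.51 FPKM. Wild-type replicate 2 was the lowest library in the receptor and the highest in the ligand, and without it their log2 fold changes of 0.13 (SE 0.21) and -0.26 (SE 0.25) became -0.03 (SE 0.18) and 0.03 (SE 0.17). The median of the class was 0.13, and 0.05 without that library.

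The factors released from mitochondria were among the more abundant members, and none had an unadjusted p under 0.05. *Cycs*, cytochrome c, was at 80.1, 67.2 and 59.3 FPKM against 64.6, 80.5 and 60.8 FPKM, with a log2 fold change of -0.07 (SE 0.16), and 0.09 (SE 0.12) without wild-type replicate 2. *Diablo* (SMAC), which displaces XIAP from caspases, was at 39.0, 52.7 and 46.2 FPKM against 38.1, 39.5 and 40.0 FPKM. Here 2 of 3 *Ptpn6*+/mev mice were above all wild-type mice and the log2 fold change was 0.16 (SE 0.12, FDR 0.66 in edgeR), and 0.05 without *Ptpn6*+/mev replicate 2, the highest library. The protease gene *Htra2* had a log2 fold change of 0.05 (SE 0.16) that was -0.05 (SE 0.15) without wild-type replicate 2. *Aifm1* (AIF) had -0.09 (SE 0.09), which was -0.04 without *Ptpn6*+/mev replicate 2 and -0.16 without *Ptpn6*+/mev replicate 1. The nuclease gene *Endog* had -0.20 (SE 0.14, FDR 0.63 in edgeR), which was -0.06 (SE 0.11) without wild-type replicate 2. The median of the class was -0.07, and it was -0.16 without *Ptpn6*+/mev replicate 1 and 0.03 without *Ptpn6*+/mev replicate 3. Downstream, *Dffa*, the inhibitor of the caspase-activated DNase, had 0.01 (SE 0.10), the DNase gene *Dffb* had 0.21 (SE 0.24) and *Parp1*, a caspase substrate, had -0.03 (SE 0.14). Without wild-type replicate 2 these values were -0.06 (SE 0.10), 0.05 (SE 0.22) and -0.16 (SE 0.10).

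Ratios within a mouse set a death gene against its inhibitor and need no scaling between libraries. The FPKM of *Bax* over that of *Bcl2l1* was 0.75, 0.72 and 0.72 in the *Ptpn6*+/mev mice and 0.65, 0.50 and 0.64 in the wild-type mice. The groups did not overlap, with means of 0.73 ± 0.02 and 0.60 ± 0.08 (SD, n = 3 each). With *Bcl2* in the denominator the ratio was 63.9, 72.0 and 80.2 against 76.3, 65.7 and 80.3, and the groups overlapped throughout. *Casp8* over *Cflar* was 1.01, 1.45 and 1.10 against 0.76, 2.27 and 0.81, where the lower wild-type values lay below all *Ptpn6*+/mev mice and wild-type replicate 2 above them. These ratios were chosen with the levels of the genes known and are given as a description, with no test.

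**Figure D5:**
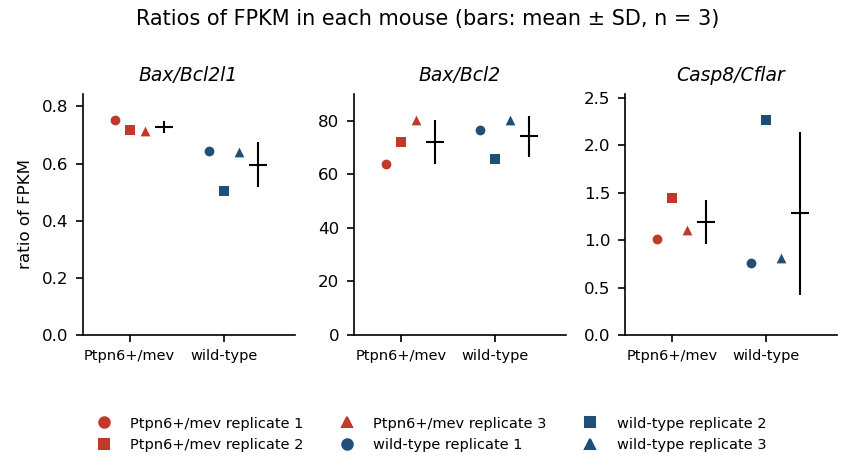
Ratio of FPKM values in each mouse for *Bax* over *Bcl2l1*, *Bax* over *Bcl2* and *Casp8* over *Cflar*, with red points for *Ptpn6*+/mev mice, blue points for wild-type mice and bars for the mean and SD of each group (n = 3). The groups are apart in *Bax* over *Bcl2l1*, overlap in *Bax* over *Bcl2*, and in *Casp8* over *Cflar* wild-type replicate 2 stands alone at 2.27.

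With wild-type replicate 2 left out, 0 of 36 genes passed an FDR of 0.05 in edgeR, where 1.80% of all tested genes did, and the lowest FDR was 0.20, for *Casp8*. At an unadjusted p under 0.05, 4 genes were higher (*Bax*, *Bid*, *Bmf* and *Casp8*), where 8.36% of all tested genes were, and none was lower, where 8.89% were. *Bax* and *Bmf* were thus the genes below this p in both fits. The median over the 36 genes without that library was 0.06, against 0.00 over all tested genes. The sign of the log2 fold change turned in 9 genes (*Bcl2l1*, *Xiap*, *Bok*, *Cycs*, *Htra2*, *Casp8*, *Tnfrsf10b*, *Tnfsf10* and *Dffa*), none of which had passed a threshold with all libraries. It also turned without *Ptpn6*+/mev replicate 1 (*Casp6*, *Dffa* and *Parp1*), *Ptpn6*+/mev replicate 2 (*Bcl2l2* and *Htra2*), *Ptpn6*+/mev replicate 3 (*Cycs*, *Casp12*, *Tradd* and *Dffa*), wild-type replicate 1 (*Htra2*, *Casp6* and *Parp1*) and wild-type replicate 3 (*Casp9* and *Parp1*). With all libraries but on the FPKM scale in limma it turned in 5 genes (*Bcl2l1*, *Bcl2l2*, *Cycs*, *Casp6* and *Parp1*), while *Bcl2l11* and *Casp9* went from 0.14 and 0.03 on counts to 0.29 and 0.13 on log2(FPKM + 1).

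Leaving out each of the 6 libraries in turn showed how far a single mouse carried a value. In 6 of the 36 genes (16.7%) the log2 fold change kept its sign and stayed within 1.5 times the value with all libraries in every such fit, as it did in 17.4% of all tested genes. These were *Bmf* (0.41 to 0.73), *Bik* (0.37 to 0.59), *Bax* (0.20 to 0.29), *Bak1* (0.15 to 0.27), *Mcl1* (0.07 to 0.13) and *Cflar* (-0.34 to -0.18). The other 30 genes moved further or turned in sign with at least 1 library left out. Among the anti-apoptotic genes the values ran from 0.20 to 0.40 in *Bcl2*, -0.13 to 0.04 in *Bcl2l1*, -0.07 to 0.01 in *Bcl2l2*, -0.43 to 0.15 in *Xiap* and 0.01 to 0.33 in *Birc2*. Those of the other effector and BH3-only genes ran from -0.02 to 0.24 in *Bok*, 0.04 to 0.23 in *Bcl2l11*, 0.10 to 0.24 in *Bid*, 0.09 to 0.26 in *Bad*, 0.28 to 0.64 in *Bbc3* and -0.26 to -0.10 in *Pmaip1*. No effector or BH3-only gene other than *Bok* turned in sign. For the mitochondrial factors the values ran from -0.20 to 0.09 in *Cycs*, 0.05 to 0.26 in *Diablo*, -0.05 to 0.25 in *Htra2*, -0.16 to -0.04 in *Aifm1* and -0.29 to -0.06 in *Endog*. For caspases and the apoptosome they ran from 0.01 to 0.31 in *Casp2*, -0.06 to 0.05 in *Casp6*, -0.59 to 0.31 in *Casp8*, -0.0057 to 0.05 in *Casp9*, -0.83 to 0.03 in *Casp12* and 0.12 to 0.48 in *Apaf1*. Wild-type replicate 2 set the end nearer to 0, or across it, in *Casp2*, *Casp8* and *Apaf1*. In the death receptor pathway the values ran from 0.0042 to 0.22 in *Fas*, 0.07 to 0.16 in *Fadd*, -0.0074 to 0.24 in *Tradd*, -0.03 to 0.35 in *Tnfrsf10b* and -0.47 to 0.03 in *Tnfsf10*, and downstream from -0.06 to 0.07 in *Dffa*, 0.05 to 0.38 in *Dffb* and -0.16 to 0.04 in *Parp1*.

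Further apoptosis genes outside the 36 were taken from a list. Of 36 listed, 26 passed the filter and none passed an FDR of 0.05 in edgeR. At an unadjusted p under 0.05, 3 were higher, *Birc5* and *Bcl2l14* among them, and 2 lower, where 5.53% of all tested genes were higher and 6.71% lower. *Birc5* (survivin), which also acts in mitosis, was at 6.25, 9.81 and 8.43 FPKM against 2.99, 2.38 and 3.83 FPKM, a log2 fold change of 1.33 (SE 0.26, FDR 0.10). It is 1 of the 6 genes of a proliferation list, all of which (*Mki67*, *Top2a*, *Ccnb1* and *Cdk1* among them) were higher at an unadjusted p under 0.05, with a summed FPKM of 29.0 to 45.3 against 10.2 to 16.4. *Bcl2l14* had a log2 fold change of 0.78 (FDR 0.27) and *Bnip3*, a mitochondrial BH3-like gene, -0.60 (FDR 0.33). *Tmbim6*, whose protein opposes BAX-driven death, had -0.18 (FDR 0.36). Without wild-type replicate 2 the value of *Bnip3* was -0.30, and 4 genes of this list were higher and 3 lower at an unadjusted p under 0.05, with none at an FDR of 0.05. The shares of all tested genes also rose in that fit, to 8.36% higher and 8.89% lower at this p. Of 14 genes upstream of the mitochondrial route, stress kinases and transcription factors among them, none had an unadjusted p under 0.05, while without wild-type replicate 2 there were 2 higher and 1 lower, and in neither fit did any pass an FDR of 0.05. *Map3k5*, the gene of the kinase ASK1, was at 12.8, 9.23 and 10.8 FPKM against 9.01, 10.7 and 9.60 FPKM, with a log2 fold change of 0.07 (SE 0.14), and *Trp53*, the gene of p53, had 0.04 (SE 0.13). Without that library these were 0.17 and -0.07.

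Markers of other cells moved with the groups to differing degrees. Of 8 proximal tubule markers, 4 were lower in *Ptpn6*+/mev kidneys at an unadjusted p under 0.05, 1 of them (*Slc22a8*) at an FDR of 0.044 in edgeR, and of 8 tubular injury markers 4 were higher, with a summed FPKM of 6057 to 7451 against 5529 to 6085. Of the distal nephron list 1 of 7 tested markers was higher and 1 lower, and of the podocyte list 1 of 4 was higher. Over all tested genes 5.53% were higher and 6.71% lower at this p, and 0.138% passed the FDR. With all libraries none of the tested markers of endothelium (6), macrophages (8), neutrophils (5), fibroblasts (6) or blood (5) had such a p, and all 8 lymphocyte markers were below the filter, with a summed FPKM of 0.36 to 0.84 in *Ptpn6*+/mev and 0.53 to 1.60 in wild-type kidneys. Without wild-type replicate 2, 4 proximal tubule markers were lower at an FDR of 0.05 in edgeR (*Slc22a8*, *Slc22a6*, *Lrp2* and *Cubn*). In that fit 2 injury markers (*Krt18* and *Krt20*) and 3 proliferation genes were higher, where 1.80% of all tested genes passed this FDR. All 6 fibroblast markers were then lower at an unadjusted p under 0.05, where 8.89% of all tested genes were lower and 8.36% higher. *Dcn* was at -0.79 (FDR 0.035) and *Pdgfra* at -0.55 (FDR 0.046), and the median of the fibroblast list went from -0.10 to -0.57. The endothelium median went from 0.20 to -0.19, with 1 marker lower at an unadjusted p under 0.05, the macrophage median from 0.20 to -0.05, and the distal nephron median from -0.19 to 0.21. The lists of macrophages, neutrophils and blood had no marker at that p in either fit. Of the lymphocyte list, *Cd4* and *Cd8a* passed the filter without wild-type replicate 2, and *Cd4* was lower at that p, at -1.85 (FDR 0.16 in edgeR), while it was at 0.03 to 0.19 FPKM in the *Ptpn6*+/mev mice and 0.23 to 0.54 FPKM in the wild-type mice. No marker was at 0 in every library. In whole kidney, fewer cells of a type and less RNA per cell cannot be told apart, and the part of these shifts in the values of the apoptosis genes was not tested.

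The library kit does not mark strand. In the annotation 12 of the 36 genes share exon sequence with another gene, and 13 share it or have fractional counts. Reads of *Bax* could be divided with *Gm45808*, which had between 1.87 and 10.64 estimated counts per library, and reads of *Bak1* with the antisense neighbour *Ggnbp1*, which had between 36.2 and 74.5. *Bax* had 766 to 1025 counts and *Bak1* had 686 to 1001. These counts are given after any division of reads, and the part of shared reads in them was not tested.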

How the data were processed

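Poly-A mRNA of 3 *Ptpn6*+/mev and 3 wild-type kidneys was sequenced, and groups and replicate numbers came from the labels. Paired reads had been mapped by the authors with TopHat to GRCm38.p5, and Cufflinks gave the FPKM values. Bowtie2 and RSEM are also named in the submitters' processing notes. The authors deposited estimated counts (expected counts, fractional in 1744 genes) and FPKM for each library, and the tool that made the counts is not given in the sources used here. Counts were rounded and tested with edgeR 4.0.16 (R 4.3.3; TMM, filterByExpr, quasi-likelihood test, Benjamini-Hochberg over 13036 genes). FPKM served for levels, ranges, ratios and, divided into the counts, for implied lengths. FPKM carries no TMM factor, so a group shift in composition can move many FPKM values together. DESeq2 1.42.0 and limma 3.58.1 gave alternatives. The procedure was tested on simulated data. Exon overlaps came from GENCODE M21 (GRCm38).

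All 36 genes are named, with full values for those at an unadjusted p under 0.05, with ranges apart or abundant in their class. Genes outside them come from a pathway list, an upstream list and 11 marker lists, which are named if at an unadjusted p under 0.05 or at high FPKM, besides *Ptpn6* and *Map3k5*. The genes, classes and lists were chosen with earlier results of these data known. Mice are the replicates. Replicate libraries of a group differed by more than sampling noise (chi-square per degree of freedom 6.49 to 45.4 within groups). Depth, 10271590 to 12361745 counts, limits precision mainly for genes with few counts. One gene of the pathway list is not reported here.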

Additional observations from a re-analysis of the deposited data

How the results depend on the processing

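None of the 36 apoptosis genes passed an FDR of 0.05 in edgeR, DESeq2 or limma under any alternative, and the lowest FDR in any of them was 0.15, for *Bmf*. Over all tested genes that count, 18, was 387 with DESeq2, 390 with edgeR's exact test, 52 with no filter on low counts, and 1 to 237 with 1 library left out, highest without wild-type replicate 2. All-gene counts at an unadjusted p under 0.05 were 1053 to 2272 with 1 library left out. Apoptosis genes at an unadjusted p under 0.05 were 2 higher and 0 lower with DESeq2 and with the exact test, 0 lower with upper quartile normalization, and 0 to 4 higher and 0 to 1 lower with 1 library left out. With the replicate block, 1 apoptosis gene was higher and 0 lower, 1 of all tested genes passed the FDR, and 3.97% of all tested genes were higher and 5.24% lower at that p, 1201 in all. Same-numbered libraries did not deviate together (correlations -0.14, -0.18 and -0.13). With so few mice per group this cannot show whether same-numbered mice shared a litter or a batch. In limma on log2(FPKM + 1) and log2(FPKM + 0.1), class medians were 0.0044 and 0.0045 for mitochondrial release factors and 0.0918 and 0.0979 for caspases, and 0.1961 with the smaller pseudocount for the death receptor pathway. With 1 library left out, the mitochondrial median ran from -0.1587 to 0.0265 and the death receptor median from 0.0496 to 0.1568. FPKM ranges were apart in 8 to 14 genes higher with 1 library left out, where fewer mice make this easier (17.9% to 23.3% of all tested genes), and in 0 genes lower on normalized CPM. The pro-apoptotic median stayed between 0.18 and 0.31 under every alternative run. The cause of these shifts was not tested. Depth limits *Casp12*, *Dffb* and *Bbc3*.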
